A study of Mus musculus with 7 samples.

Results

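Non-macrophage leukocytes are the white blood cells of the infarcted heart other than C1q-rich macrophages, and they were compared between 1 library of Mertk KO P1 MI hearts and 2 libraries of WT P1 MI hearts. A cell barcode was kept with 500 or more UMIs (unique molecular identifiers, 1 per captured transcript), 300 or more genes and a mitochondrial share of 15% or less. It counted as a non-macrophage leukocyte with at least 1 UMI of Ptprc, the gene of the pan-leukocyte protein CD45, and at most 2 UMIs of C1qa, C1qb and C1qc together. By this rule 4096 barcodes of the KO library, 194 of WT replicate 1 and 1721 of WT replicate 2 were members, in all 6011 of the 17515 kept barcodes of these 3 libraries (40158 were kept in the 7 libraries of the series). Each member was placed in the T class (at least 1 UMI of Cd3e), else in the B class (at least 2 of Cd79a), else in the neutrophil class (S100a8 and S100a9 with at least 1% of UMIs), and otherwise in the other class. No measured difference between the genotypes entered these rules.

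The KO library came from P1 (neonatal) hearts labelled MerTK KO after MI (myocardial infarction), and both WT libraries from P1 hearts labelled C57BL6/J after MI. A sham library of each genotype at P1 (1 KO, 1 WT) gave uninjured levels for reading beside them. Hearts were perfused and digested, dead cells that bound Annexin V were taken out, and CD45+ cells were enriched and mixed again with the remaining cells at a set ratio, so only proportions among leukocytes were compared. The time between surgery and collection, the deleted exons, the background strain of the KO line and whether a library holds 1 heart or several are not given in the sources used here.

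MerTK is a surface receptor of macrophages that recognises dying cells, spent neutrophils among them, and triggers their uptake. Neutrophils mature in the marrow through stages that are read from their granules: primary granule genes mark the earliest precursors, secondary granule genes the intermediate forms, and tertiary granule genes the mature cells. The remaining leukocytes of the heart include T and B lymphocytes, monocytes, dendritic cells, natural killer and innate lymphoid cells, mast cells and basophils.

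The libraries differed in size and depth before any class was compared. WT replicate 1 held 773 kept barcodes in all, and its class sums rested on 19 to 70 barcodes. Its 19 neutrophils held 265373 UMIs, against 16369283 in the KO library and 8703799 in WT replicate 2, and 1 of them held 45.8% of the Gapdh UMIs. Median UMIs per leukocyte were 4183.5 in the KO library, 7542 in WT replicate 1 and 7647 in WT replicate 2. Leukocytes made up 62.0% of kept barcodes in the KO library, 25.1% in WT replicate 1 and 17.0% in WT replicate 2. The KO library and WT replicate 2 shared 2 leukocyte barcodes, and no other pair shared one. Xist, the RNA of the inactive X chromosome, was at 12.5 CPM (summed UMIs of a class per 1000000) in KO neutrophils, 350.5 in WT replicate 1 and 161.9 in WT replicate 2 (called lower, edgeR adjusted p = 0.00756), while the Y-linked gene Ddx3y was at 57.2, 3.77 and 8.39 CPM in the same order; KO sham neutrophils had 199.4 CPM of Xist and none of Ddx3y. The mix of male and female cells thus differed between libraries, and its part in the results was not tested. Counts, intervals and floors below cover counting error only.

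Transcripts of Mertk itself (chr2:128698956-128802894, plus strand, GRCm38) were counted in every library. Over all kept barcodes Mertk had 16.8 CPM in Mertk KO P1 MI and 13.2 in Mertk KO P1 sham, against 11.04 in WT replicate 1, 6.76 in WT replicate 2 and 10.5 in WT P1 sham. A 3′ tag outside the deleted part checks nothing, so these values do not check the genotype. Among the leukocytes studied here Mertk had 441 UMIs (17.9 CPM) in the KO library, 5 (2.34 CPM) in WT replicate 1 and 59 (3.27 CPM) in WT replicate 2. In the neutrophil class 279 of 2945 KO barcodes held a Mertk UMI, against 0 of 19 in WT replicate 1 and 18 of 879 in WT replicate 2, and the difference did not pass the test (edgeR, adjusted p = 0.311).

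Neutrophils made up the greater part of KO leukocytes and a smaller share in each WT library. The neutrophil share was 71.9% (2945 of 4096 barcodes, exact 95% binomial interval 70.5 to 73.3) in the KO library, 9.79% (19 of 194, 6.0 to 14.9) in WT replicate 1 and 51.1% (879 of 1721, 48.7 to 53.5) in WT replicate 2. The WT libraries lay further from each other than WT replicate 2 lay from the KO library: the KO share exceeded that of WT replicate 2 by 20.8 percentage points and that of WT replicate 1 by 62.1 points. The neutrophil share was 40.3% in KO sham hearts (510 of 1267) and 7.12% in WT sham hearts (44 of 618), so the order of the genotypes was the same without infarction.

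Lymphocytes took the opposite order. T class barcodes were 3.25% of leukocytes (133; 2.73 to 3.84) in the KO library, 30.4% (59; 24.0 to 37.4) in WT replicate 1 and 6.92% (119; 5.76 to 8.22) in WT replicate 2. The B class held 1.05% (43; 0.761 to 1.41) in the KO library, 23.7% (46; 17.9 to 30.3) in WT replicate 1 and 6.92% (119; 5.76 to 8.22) in WT replicate 2. The other class held 23.8% (975, 22.5 to 25.1) in the KO library, 36.1% (70, 29.3 to 43.3) in WT replicate 1 and 35.1% (604, 32.8 to 37.4) in WT replicate 2. At least 2 of 4 fibroblast markers stood in 9.03% of KO, 7.14% of WT replicate 1 and 25.7% of WT replicate 2 other class barcodes. For 4 endothelial markers the values were 2.36%, 2.86% and 12.1%. Shares over this class include such barcodes, and their part in the differences was not tested. In each of the 4 classes the KO share lay outside both WT shares, and the intervals did not overlap. These are shares of a fixed total, so a class can be lower because another is higher.

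**Figure D1:**
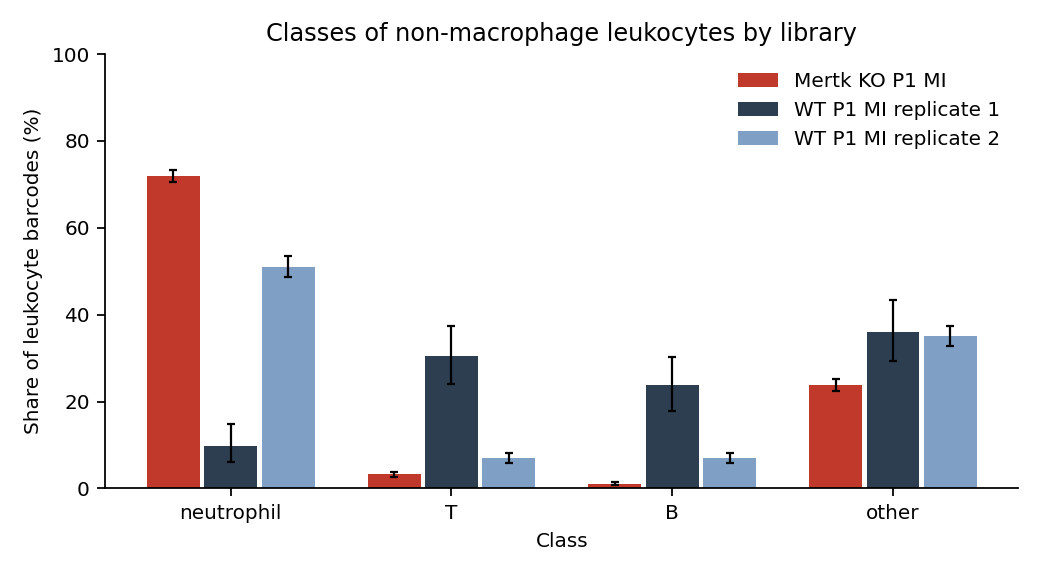
Share of non-macrophage leukocyte barcodes (%, vertical axis) in each class (horizontal axis) for the Mertk KO P1 MI library and the 2 WT P1 MI libraries; bars are shares and lines exact 95% binomial intervals (counting error only). Neutrophils are 71.9% in the KO library, 9.79% in WT replicate 1 and 51.1% in WT replicate 2, and the T and B shares run the other way.

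The shares were not tested over samples, since 1 library against 2 cannot give a one-sided permutation p below 0.333. With every barcode thinned to 1000 UMIs and classed again, the neutrophil share was 74.3% in the KO library, 15.4% in WT replicate 1 and 59.0% in WT replicate 2, but the T share was 1.21% (0.795 to 1.75) in the KO library, 14.1% in WT replicate 1 and 1.42% (0.737 to 2.47) in WT replicate 2, so the KO library and WT replicate 2 no longer differed beyond counting error. Stromal cells should lack S100a8 and S100a9, and the neutrophil rule was met there by 2.00% of stromal barcodes (15 of 749 fibroblast or endothelial barcodes without Ptprc, median 10127 UMIs) in the KO library, 0 of 385 (which allows up to 0.779%; median 16694 UMIs) in WT replicate 1 and 0.190% (10 of 5275; median 10773 UMIs) in WT replicate 2. Neutrophil class barcodes were shallower, with a median of 3614 UMIs in the KO library, 3703 in WT replicate 1 and 7096 in WT replicate 2. The same free RNA would be a smaller share of a stromal barcode, so this check cannot bound its part in the neutrophil shares. That part was not tested. Near the threshold, 154 KO, 0 WT replicate 1 and 35 WT replicate 2 leukocytes had 0.5 to 1% of their UMIs from S100a8 and S100a9, and 244, 0 and 50 had 1 to 2%.

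The labels of the classes held against markers that the rules did not use. At least 2 of 6 further T cell markers were found in 129 of 133 KO T class barcodes, 59 of 59 in WT replicate 1 and 118 of 119 in WT replicate 2. At least 2 of 6 further B cell markers were found in all 43, 46 and 119 B class barcodes. At least 2 of 9 further neutrophil markers were found in 97.1% of KO neutrophils, 94.7% in WT replicate 1 and 96.3% in WT replicate 2. The T class also carried neutrophil transcripts: 34 of 133 KO barcodes (25.6%), 0 of 59 in WT replicate 1 and 29 of 119 in WT replicate 2 (24.4%) had at least 2 neutrophil markers. The same held for 34.9% of KO B class barcodes, 0 of 46 in WT replicate 1 and 19.3% in WT replicate 2, so myeloid genes in the lymphocyte classes are given below as values only.

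Within each class, raw counts were summed per library and tested with edgeR, and a gene was called at an adjusted p under 0.05, a fold change of at least 2 and a KO level beyond both WT libraries. With 1 KO library the test takes its spread from the 2 WT libraries. In the neutrophil and T classes this spread was a trend over all genes (prior degrees of freedom infinite). A gene's own distance between the WT libraries had no weight there, so its p-value does not measure that distance. The prior degrees of freedom were 9.899 in B and 3.219 in other, so the numbers of calls cannot be compared between classes. Nothing in the labels says that the WT libraries came from separate animals, so the p-values rest on a spread between libraries that could be technical. As a description without a test, genes at least 2-fold above or below both WT libraries were also counted. The WT libraries themselves were at least 2-fold apart for 41.6% of genes in the neutrophil class, 29.8% in the T class, 21.2% in the B class and 28.2% in the other class. Lying beyond both WT libraries is a stricter criterion, so its counts are not set against these shares. In neutrophils, 4774 genes were 2-fold apart between the WT libraries. The like counts for the KO library were 1736 against WT replicate 2 and 5086 against WT replicate 1. A gene entered with at least 30 UMIs over the compared libraries together, and WT replicate 1 neutrophils held only 265373 UMIs. Counting error at low counts is therefore part of the distances to WT replicate 1.

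KO neutrophils had fewer transcripts of the earliest granule proteins and more of the interferon gene Gbp2 and the arginine enzymes Arg1 and Nos2, and these passed the test. Most cell cycle and secondary granule genes were also lower, and cytokine and hypoxia-response genes higher, without passing it. In this class 17 genes were called higher (0.138% of 12283 tested) and 10 were called lower (0.0814%). At least 2-fold above both WT libraries were 256 genes (2.23% of 11480 with at least 30 UMIs) and at least 2-fold below both were 606 (5.28%). The 606 include genes at 0 in the small WT replicate 1 class, where the 0.5 counts added before the ratio weigh most. Without added counts 455 were 2-fold below both. Beyond WT replicate 2 alone lay 1736 genes in either direction, and beyond WT replicate 1 alone 5086, against 862 beyond both. DESeq2 on the same sums called 11 genes, of which 3 were among the 27 called by edgeR.

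The primary granule list gave most of the lower calls. Of its 7 tested genes 6 were called lower, beside 0.0814% of all tested genes, and the median log2 fold change was -8.42 (0.016 over all tested genes). Elane, the neutrophil elastase of primary granules, had 0.977 CPM in KO neutrophils, 4827 in WT replicate 1 and 55.3 in WT replicate 2 (log2 fold change -10.79 ± 1.47 SE, adjusted p = 1.65e-09). Mpo, the myeloperoxidase that makes hypochlorous acid, had 2.38, 3497 and 16.8 CPM in the same order (-9.03 ± 1.33, adjusted p = 2.28e-08). Ctsg, the granule protease cathepsin G, had 0.367 CPM in KO neutrophils, 1161 in WT replicate 1 and 19.9 in WT replicate 2 (-10.11 ± 1.30, adjusted p = 9.46e-11). The KO library was below both WT libraries for these genes, and WT replicate 1 was far above WT replicate 2, a distance that their p-values do not measure.

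These levels came from few cells. Elane was detected in 13 of 2945 KO neutrophils, 3 of 19 in WT replicate 1 and 18 of 879 in WT replicate 2, and 1 barcode held 77.0% of its UMIs in WT replicate 1 and 53.8% in WT replicate 2. Barcodes with at least 3 UMIs of Elane, Mpo, Ctsg and Ms4a3 together were 8 of the KO neutrophils (0.272%), 4 in WT replicate 1 (21.1%) and 14 in WT replicate 2 (1.59%). Of the 10 genes called lower, 8 drew more than 50% of their UMIs in at least 1 WT library from a single barcode. Sham neutrophils of both genotypes had little of these genes, with 3.18 CPM of Elane in KO sham and 0 in WT sham. Ms4a3, a membrane protein of granulocyte precursors, fell as well (0.916 CPM in KO neutrophils, 878 in WT replicate 1 and 20.2 in WT replicate 2, adjusted p = 3.01e-09), as did Fcnb, a secreted ficolin (4.83, 471 and 53.2 CPM, adjusted p = 8.49e-05). Prtn3, proteinase 3, fell too (86.0, 5709 and 187.2 CPM, adjusted p = 0.0176), and it was found in 22.6% of KO neutrophils, 15.8% in WT replicate 1 and 22.2% in WT replicate 2; 4 of 8 alternatives called it. Elane, Ctsg and Mpo were called under 7 of 8 alternatives each. The exception was DESeq2, which gave the highest adjusted p of each range (1.30e-11 to 0.0606 for Elane, 2.03e-13 to 0.0659 for Ctsg and 2.99e-10 to 0.334 for Mpo). The alternative that leaves out barcodes meeting more than 1 class rule holds the same neutrophils as the main test. Its calls in this class were therefore fixed in advance.

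The upstream sequences of the 3 leading genes, all matched in the RefSeq table by symbol, are shown because their transcripts were low together. Each run is the 250 bases before the RefSeq start, 5′ to 3′ along the gene's strand (GRCm38.p6), with GAGGAA, or TTCCTC on the opposite strand, in capitals. That hexamer is the core letters bound by PU.1, a transcription factor of myeloid cells.
Elane, chr10:79886062-79886311, plus strand: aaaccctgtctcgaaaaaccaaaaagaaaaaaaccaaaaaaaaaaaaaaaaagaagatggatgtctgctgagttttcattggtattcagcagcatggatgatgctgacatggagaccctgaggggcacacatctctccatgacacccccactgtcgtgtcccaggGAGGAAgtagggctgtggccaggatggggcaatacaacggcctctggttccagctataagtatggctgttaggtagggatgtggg
Mpo, chr11:87793534-87793783, plus strand: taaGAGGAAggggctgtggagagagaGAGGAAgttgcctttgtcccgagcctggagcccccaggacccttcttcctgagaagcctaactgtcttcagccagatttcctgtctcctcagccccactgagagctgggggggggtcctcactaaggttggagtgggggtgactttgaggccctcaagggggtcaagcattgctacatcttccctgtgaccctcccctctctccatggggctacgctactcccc
Ctsg, chr14:56102575-56102824, minus strand: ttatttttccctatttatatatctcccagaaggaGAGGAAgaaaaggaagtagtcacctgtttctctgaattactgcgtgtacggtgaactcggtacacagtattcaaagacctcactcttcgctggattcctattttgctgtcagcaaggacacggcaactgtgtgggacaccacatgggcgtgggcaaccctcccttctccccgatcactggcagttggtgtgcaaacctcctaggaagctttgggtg
All 3 windows held the hexamer (2 matches for Mpo, 1 each for Elane and Ctsg), which stands in 23.3% of the 32851 upstream windows of this length on either strand. The match is a description of letters, and the motif was chosen with the results known. Spi1, the gene of PU.1, was at 663.9 CPM in KO neutrophils, 523.8 in WT replicate 1 and 615.1 in WT replicate 2.

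Secondary granule genes were mostly lower in KO neutrophils without passing the test. Of the 12 genes 8 were below both WT libraries and 4 above both (42.0% and 22.4% of all genes were), 6 were at least 2-fold below both and 1 at least 2-fold above (5.28% and 2.23% of all genes), and none was called. Camp, the cathelicidin antimicrobial peptide, had 484.8 CPM in the KO library, 12670 in WT replicate 1 and 3532 in WT replicate 2 (adjusted p = 0.332). Ltf, lactoferrin, had 370.7 CPM in the KO library, 2287 in WT replicate 1 and 1231 in WT replicate 2, and Ngp had 1459, 9579 and 4788 CPM. Counted by cell, 3.80% of KO neutrophils had at least 1% of their UMIs from Camp, Ltf and Ngp, against 21.1% in WT replicate 1 and 13.7% in WT replicate 2. KO sham neutrophils did not show the low share (19.6%, beside 11.4% in WT sham), so within the KO genotype the infarcted library was the lower one. Hp, haptoglobin, was the member at least 2-fold above both (3343, 923.2 and 1435 CPM).

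Mature neutrophil genes were less far apart. Of the 14 tertiary granule and maturation genes only Wfdc17, a small secreted protease inhibitor-like protein, was at least 2-fold above both WT libraries (5937 CPM in the KO library, 188.4 in WT replicate 1 and 2881 in WT replicate 2). Mmp9, the gelatinase of tertiary granules, had 658.0, 369.3 and 505.8 CPM, and Cxcr2, the chemokine receptor of circulating neutrophils, had 231.0, 139.4 and 230.9 CPM. Cxcr4, the marrow-retention receptor, was below both (23.8 CPM in the KO library, 56.5 in WT replicate 1 and 92.9 in WT replicate 2, adjusted p = 1.00). The cell cycle list gave 21 of 22 genes below both WT libraries (42.0% of all genes were) and 8 at least 2-fold below (5.28%), with a median log2 fold change of -1.55, and none was called. Rrm2, a ribonucleotide reductase subunit, had 5.56 CPM in the KO library, 162.0 in WT replicate 1 and 23.9 in WT replicate 2 (adjusted p = 0.0719), and Stmn1, a microtubule regulator of dividing cells, had 55.8, 459.7 and 129.9 CPM.

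Inflammatory mediators were higher in KO neutrophils without passing the test. Of 23 chemokine and cytokine genes 17 were above both WT libraries (22.4% of all genes were) and 8 were at least 2-fold above both (2.23%), and none was called. Il1b, the cytokine interleukin-1β, had 8776 CPM in KO neutrophils, 1187 in WT replicate 1 and 4195 in WT replicate 2. Cxcl2, a neutrophil-attracting chemokine, had 15870, 1862 and 6533 CPM, and Ccl3, a chemokine for monocytes and lymphocytes, had 1042, 30.2 and 359.5 CPM. Il1a, interleukin-1α, had 140.3 CPM in the KO library, 22.6 in WT replicate 1 and 27.3 in WT replicate 2 (adjusted p = 0.0782). Il1a and Il1b lie on chromosome 2 within 10 Mb of Mertk, a window in which 3 of 161 genes, Mertk among them, were at least 2-fold above both WT libraries and 13 at least 2-fold below both, beside 2.23% and 5.28% of all genes. In KO sham neutrophils Il1b was at 3779 CPM and Cxcl2 at 5445, beside 3156 and 2536 CPM in WT sham.

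Genes of hypoxia and glycolysis were also high: 18 of 20 were above both WT libraries (22.4% of all genes were), 8 at least 2-fold (2.23% of all genes), with a median log2 fold change of 1.54 and none called. The same list summed to 7691 CPM in KO stroma, 2697 in WT replicate 1 and 2686 in WT replicate 2 stroma. Hilpda, a lipid droplet protein induced by low oxygen, had 1305 CPM in KO neutrophils, 124.4 in WT replicate 1 and 456.9 in WT replicate 2 (adjusted p = 0.326), and it was detected in 87.6% of KO, 52.6% of WT replicate 1 and 58.0% of WT replicate 2 neutrophils. Slc2a1, the glucose transporter GLUT1, had 171.5, 30.2 and 72.4 CPM. Gapdh, an enzyme of glycolysis, had 5660 CPM in KO neutrophils, 2314 in WT replicate 1 and 2565 in WT replicate 2.

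Genes called higher included Gbp2, Nos2 and Ereg, found in 986, 975 and 801 of 2945 KO neutrophils, and Arg1, found in 175. Gbp2, an interferon-induced GTPase, had 173.6 CPM in the KO library, 0 in WT replicate 1 and 19.0 in WT replicate 2 (112 of 879 barcodes; log2 fold change 3.93 ± 0.76, adjusted p = 0.000237). It was the 1 gene called among 23 of the interferon list, of which 4 were at least 2-fold above both (2.23% of all genes). Ereg, the growth factor epiregulin, had 177.2, 0 and 26.5 CPM (adjusted p = 0.00153). Nos2, the inducible nitric oxide synthase, had 144.7 CPM in the KO library, 0 in WT replicate 1 and 33.5 in WT replicate 2 (adjusted p = 0.0270), and 129.7 CPM in KO sham against 0 in WT sham. Arg1, arginase 1, which splits the same substrate arginine, had 133.0 CPM in the KO library, 3.77 in WT replicate 1 and 15.1 in WT replicate 2 (3.72 ± 0.78, adjusted p = 0.00153). Ereg, Nos2 and Gbp2 were at 0 in WT replicate 1, where 3 counts would be 11.3 CPM. Nos2 was also at least 2-fold above both WT libraries in the T and other classes, and Arg1 in the T class. In the KO T class 1 barcode held 60.0% of the 35 Nos2 UMIs. Arg1 was found in 20.3% of KO other class barcodes, beside 5.94% of KO neutrophils. The part of RNA from other cells in these values was not tested. Arg1 was called under all 8 alternatives, Gbp2 and Ereg under 7 (highest adjusted p 0.987 each) and Nos2 under 5 (0.987), each counting the alternative that repeats the main test in this class.

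Other genes called higher were genes that stromal cells of the KO library also held at high level. Clu, the chaperone clusterin, had 449.6 CPM in KO neutrophils, 0 in WT replicate 1 and 14.6 in WT replicate 2 (adjusted p = 3.01e-09), and KO stromal barcodes had 2009 CPM of it. Timp1, an inhibitor of matrix metalloproteinases, had 725.4, 0 and 32.4 CPM (adjusted p = 2.45e-08), beside 6306 CPM in KO and 217.6 in WT replicate 2 stroma. Cxcl5, a neutrophil-attracting chemokine, had 127.7, 0 and 4.71 CPM (adjusted p = 2.16e-06), beside 1157 CPM in KO stroma. Clu was found in 136 and Cxcl5 in 85 of the 2945 KO neutrophils. The acute-phase gene Saa3 had 7236 CPM in KO neutrophils, 0 in WT replicate 1 and 1457 in WT replicate 2 (adjusted p = 0.0581), 7392 CPM in KO sham neutrophils and 14650 CPM in KO stroma. Clu, Timp1 and Cxcl5 were called under 7 of 8 alternatives. The part of free stromal RNA in these values was not tested.

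Ifi202b, an interferon-inducible DNA-binding protein whose transcript level is known to differ between inbred mouse strains, was found among the P1 libraries in the KO ones: it had 318 UMIs (19.4 CPM) in 228 KO neutrophils, 27.5 CPM in KO sham, and 0 UMIs in WT replicate 1, WT replicate 2 and WT sham (at least 58.1-fold higher in KO, with 3 counts over the WT libraries together as the floor; adjusted p = 0.00128). KO stroma had 27.7 CPM of it, against 0 in the stroma of both WT libraries. The strain background of the KO line and the loss of Mertk cannot be told apart here. Bc1, a short non-coding RNA, had 14.4 CPM in KO neutrophils and none in both WT libraries (at least 42.9-fold higher, adjusted p = 0.0105). Cxcl13, a B cell chemokine, was called higher on 342 KO UMIs of which 86.5% came from 1 barcode.

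**Figure D2:**
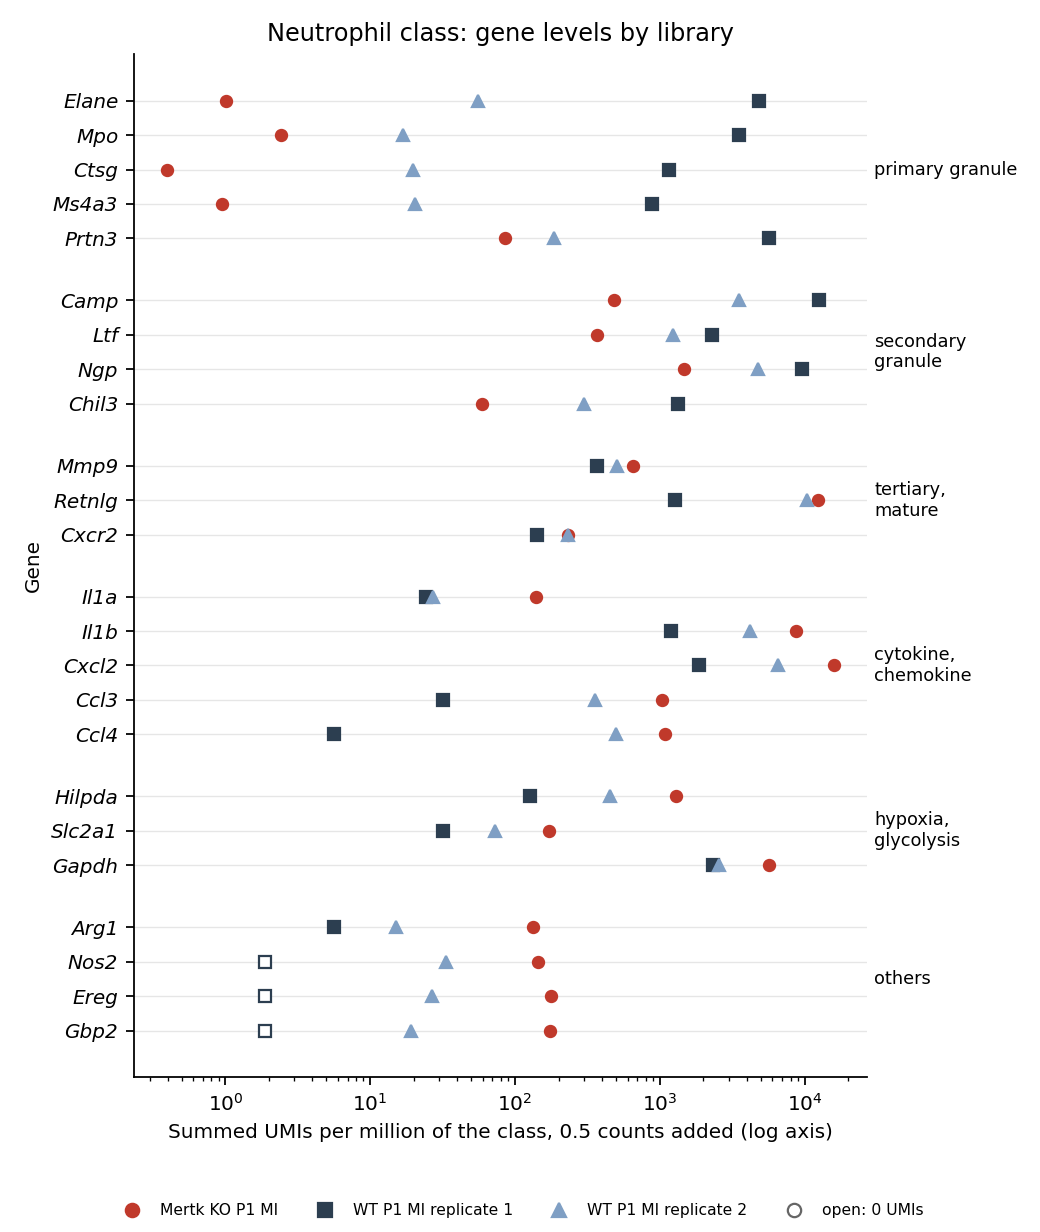
Level in CPM in the neutrophil class (horizontal axis, log scale, 0.5 counts added) for named genes (vertical axis, grouped by role) in the Mertk KO P1 MI library and the 2 WT P1 MI libraries; open symbols are 0 UMIs. The plotted primary and secondary granule genes (Elane to Chil3) are lowest in the KO library, and the plotted cytokine, hypoxia and arginine enzyme genes are highest there; Retnlg, Mmp9 and Cxcr2 lie close between the KO library and WT replicate 2.

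The T class of the KO library had a higher Il17a level (CPM) than either WT library, without passing the test, and a share of γδ T cells between theirs. In this class 13 genes were called higher (0.149% of 8750 tested) and 54 were called lower (0.617%). At least 2-fold above both WT libraries were 176 genes (2.26% of 7772) and at least 2-fold below both were 441 (5.67%). On simulated counts of these T classes the test recovered 0 of 50 genes at each of 2-, 4-, 8- and 16-fold, so a T cell gene that was not called may still differ. The same test called 67 genes in the real counts, so the simulated counts do not match them and the recovery is only a rough guide. Beyond WT replicate 2 alone lay 1262 genes in either direction, and beyond WT replicate 1 alone 2413, against 617 beyond both. Scaled by library totals in place of TMM factors, none of the 67 genes was called, and DESeq2 called 12, of which 6 were among the 67.

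γδ T cells carry the Trdc and Tcrg-C1 receptor chains and are an early source of interleukin-17. Barcodes with Trdc or Tcrg-C1 were 45.1% of the KO T class (60 of 133), 54.2% in WT replicate 1 (32 of 59) and 35.3% in WT replicate 2 (42 of 119), so their share lay between the WT shares. In sham hearts this share was 30.9% in KO and 7.07% in WT. Il17a, the interleukin-17A gene, had 442.3 CPM in KO T cells, 73.2 in WT replicate 1 and 50.6 in WT replicate 2 (log2 fold change 2.88 ± 0.88, adjusted p = 0.0956). Il17a was detected in 37 of 133 KO (27.8%), 14 of 59 WT replicate 1 (23.7%) and 16 of 119 WT replicate 2 T cells (13.4%), and in 15.9%, 11.9% and 7.63% after thinning to 1000 UMIs. Of these barcodes, 36 of 37 in the KO library, 14 of 14 in WT replicate 1 and 15 of 16 in WT replicate 2 also held Trdc or Tcrg-C1. The CPM levels differed more than the shares of cells, and the barcode with the most Il17a held 14.9% of it in the KO library. The adjusted p ranged from 0.0240 to 0.999 over 8 alternatives, 3 of which called Il17a. The alternative with a 2% neutrophil rule leaves the T class unchanged and repeats the main test.

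Of 24 activation, effector and regulatory genes, 5 were at least 2-fold above both WT libraries and 1 at least 2-fold below both. Of all genes 2.26% and 5.67% were, and none of the 24 was called. The 5 were Il17a, Tnfrsf4, Cd69, Gzmb and Ly6a, and the 1 was Gzma. Tnfrsf9, given below, is outside this list. Tnfrsf4 (OX40), a receptor induced on activated T cells, had 162.0 CPM in the KO library, 21.2 in WT replicate 1 and 32.1 in WT replicate 2 (adjusted p = 0.161). Tnfrsf9 (4-1BB), another such receptor, had 130.0, 25.03 and 17.9 CPM (adjusted p = 0.104). Cd69, an early activation marker, had 202.5, 65.5 and 71.8 CPM, and Ly6a (Sca-1) had 479.6, 67.4 and 131.4 CPM. Gzmb, the cytotoxic protease granzyme B, had 164.1 CPM in the KO library, 9.63 in WT replicate 1 and 63.5 in WT replicate 2, whereas granzyme A, Gzma, had 23.4, 79.0 and 198.7 CPM. In KO sham T cells Tnfrsf4 stood at 244.6 and Gzmb at 494.4 CPM, above the infarcted KO library, and Il17a at 10.2 CPM, far below it. The genes named here other than Gzma were chosen after their values were seen.

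Of 11 naive and circulating T cell genes 7 were below both WT libraries (31.5% of all genes were) and 2 at least 2-fold below (5.67%), and none was called. Ccr7, the homing receptor for lymph nodes, had 99.1 CPM in the KO library, 381.3 in WT replicate 1 and 176.3 in WT replicate 2. Cd4 was found in 6.02% of the KO T class, 13.6% in WT replicate 1 and 18.5% in WT replicate 2, and Cd8a or Cd8b1 in 24.8%, 28.8% and 30.3%. Foxp3, the factor of regulatory T cells, was found in 6.77%, 1.69% and 6.72%. Thinned to 1000 UMIs, Cd4 was found in 2.27% of KO, 0 of 59 WT replicate 1 and 2.54% of WT replicate 2 T cells, so no order for Cd4 was read.

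The 13 calls in the higher direction rested largely on single cells: 7 of them drew more than 50% of their KO UMIs from 1 barcode. Csf3, the granulocyte growth factor G-CSF, was called higher (68.2 CPM in the KO library, 0 in WT replicate 1 and 1.28 in WT replicate 2, adjusted p = 1.97e-06) with 96.9% of its 64 KO UMIs in 1 of 133 barcodes. Serpinb2, Marco and Calb2 were called likewise, with 96.6%, 92.5% and 77.8% of their KO UMIs in 1 barcode. Serpina3g, a protease inhibitor of activated lymphocytes, was spread over 28 of 133 KO barcodes, 3 of 59 in WT replicate 1 and 4 of 119 in WT replicate 2 (78.9, 5.78 and 6.41 CPM, adjusted p = 0.00107). KO stroma held it at 78.1 CPM, against 2.66 CPM in WT replicate 1 and 12.15 CPM in WT replicate 2 stroma.

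The 54 lower calls were led by genes of other cell types. Of 12 fibroblast genes 5 were called lower and of 10 endothelial genes 2, beside 0.617% of all tested genes. Lum, a collagen-binding proteoglycan of fibroblasts, had 0 UMIs in 133 KO T cells, 65.5 CPM in WT replicate 1 and 201.3 in WT replicate 2 (at least 52.3-fold lower in KO, adjusted p = 0.000228), and 97.1% of the WT replicate 1 UMIs came from 1 barcode. Fabp4, a fatty acid carrier of capillary endothelium, had 26.6 CPM in the KO library, 604.7 in WT replicate 1 and 1910 in WT replicate 2 (adjusted p = 0.000228), with 99.0% and 67.0% of the WT UMIs in 1 barcode each. In 49 of the 54 genes a single barcode held more than 50% of the UMIs in at least 1 WT library. The fibroblast list summed to 478.5 CPM in the KO T class, 2078 in WT replicate 1 and 4815 in WT replicate 2, and the endothelial list to 141.8, 785.7 and 2433 CPM. With likely doublets (barcodes that may hold more than 1 cell) removed, 46 of 7705 tested genes were called in either direction. Of these, 17 were among the 67 called with all barcodes. The part of mixed barcodes in the calls was not tested beyond this.

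**Figure D3:**
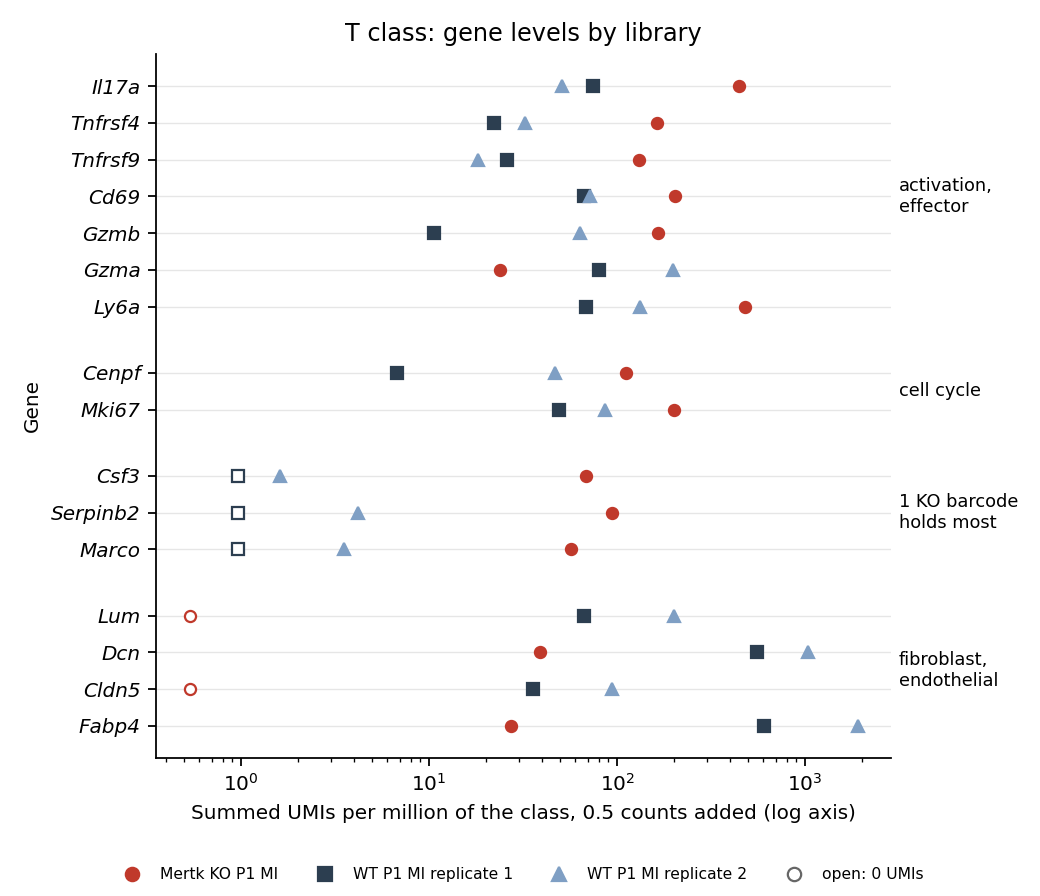
Level in CPM in the T class (horizontal axis, log scale, 0.5 counts added) for named genes (vertical axis, grouped) in the Mertk KO P1 MI library and the 2 WT P1 MI libraries; open symbols are 0 UMIs. Il17a, Tnfrsf4, Tnfrsf9, Cd69, Gzmb and Ly6a are highest in the KO library and Gzma lowest; Csf3, Serpinb2 and Marco are high through 1 KO barcode, and the fibroblast and endothelial genes are high in both WT libraries.

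B cells of the KO library showed less of the cell cycle and of the genes of B cell precursors than those of either WT P1 MI library, though only 43 cells stood behind the KO values. In sham hearts the order was the other way, with both lists higher in KO. In this class 2 genes were called higher (0.0266% of 7526 tested) and none was called lower by edgeR (349 genes had an unadjusted p under 0.05, and DESeq2 called 0). At least 2-fold above both WT libraries were 195 genes (2.94% of 6624) and at least 2-fold below both were 488 (7.37%); beyond WT replicate 2 alone lay 1200 genes and beyond WT replicate 1 alone 1951, against 683 beyond both. All 21 cell cycle genes with enough counts lay below both WT libraries (38.6% of all genes did), 12 of them at least 2-fold (7.37%), with a median log2 fold change of -1.60 (-0.048 over all tested genes). Top2a, the topoisomerase of dividing cells, had 29.0 CPM in the KO library, 216.8 in WT replicate 1 and 121.7 in WT replicate 2, found in 5 of 43, 10 of 46 and 20 of 119 B cells. Mki67, a proliferation marker, had 36.2, 147.9 and 80.8 CPM. The cell cycle list summed to 1656 CPM in the KO library, 3528 in WT replicate 1 and 3965 in WT replicate 2, beside 2528 in KO sham and 1754 in WT sham.

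Of 8 precursor B cell genes 4 were at least 2-fold below both WT libraries and 7 were below both, beside 7.37% and 38.6% of all genes. Vpreb3, a chaperone of the immature receptor, had 87.0 CPM in the KO library, 352.9 in WT replicate 1 and 285.1 in WT replicate 2, and it was detected in 30.2%, 58.7% and 67.2% of B cells. Vpreb1, part of the surrogate light chain, had 0 UMIs in the KO library, 65 in 4 WT replicate 1 barcodes and 11 in 2 WT replicate 2 barcodes. The precursor list summed to 318.9 CPM in the KO library, 1185 in WT replicate 1 and 599.8 in WT replicate 2, beside 913.0 in KO sham and 519.8 in WT sham. Of 19 B cell identity genes 1 was at least 2-fold below both WT libraries and none above: Iglc3, a lambda light chain, had 184.8 CPM in the KO library, 383.2 in WT replicate 1 and 372.9 in WT replicate 2 (edgeR adjusted p = 0.985); it is named after its values were seen. Ighm, the IgM heavy chain, had 2026, 2854 and 1959 CPM, and Ighd, the IgD heavy chain of mature naive B cells, had 141.3, 146.2 and 140.8 CPM. Cd74 and H2-Aa, of the MHC class II pathway, had 5312 and 1326 CPM in the KO library, 5657 and 1005 in WT replicate 1, and 5090 and 1134 in WT replicate 2. Serpina3n, a secreted acute-phase protease inhibitor and 1 of the 2 called genes, had all 25 of its KO UMIs in 1 barcode. Myeloid mediators were high in KO B cells (Il1b at 2692 CPM, against 5.04 in WT replicate 1 and 1227 in WT replicate 2), and the share of KO B class barcodes with neutrophil markers was the highest too, as given above; the part of neutrophil RNA in these values was not tested. The erythroid list summed to 25.4, 31.9 and 6378 CPM.

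The other class differed most plainly in mast cells, none of which was counted in the KO library. Barcodes with at least 2 of the 4 mast cell markers numbered 0 of 975 in the KO library (which allows a share of up to 0.308%), 7 of 70 (10.0%) in WT replicate 1 and 21 of 604 (3.48%) in WT replicate 2. Sham hearts had the same order, with 0 of 505 in KO (up to 0.594%) and 7 of 144 (4.86%) in WT. Mast cells are resident tissue leukocytes that store proteases and histamine in their granules. The 4 markers are Cma1, Mcpt4, Tpsb2 and Cpa3, so their levels below are the same measurement in another form.

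Cma1, the mast cell chymase, had 0.423 CPM in the KO other class, 4969 in WT replicate 1 and 1653 in WT replicate 2, detected in 3 of 975, 9 of 70 and 41 of 604 barcodes. Mcpt4, a second chymase, had 0.141, 2073 and 738 CPM. Tpsb2, the mast cell tryptase, had 0 UMIs in the KO library, 1796 CPM in WT replicate 1 and 536.6 in WT replicate 2, which is at least 1580-fold lower in KO. Cpa3, the mast cell carboxypeptidase, had 1.97, 1433 and 596.4 CPM. Of 14 mast cell, basophil and eosinophil genes 13 were at least 2-fold below both WT libraries, beside 6.79% of all genes. The list summed to 54.8 CPM in Mertk KO P1 MI and 64.9 in Mertk KO P1 sham, against 11340 in WT replicate 1, 3813 in WT replicate 2 and 7998 in WT P1 sham, so all 3 WT libraries lay far above both KO libraries. None of these genes was called by edgeR, which called 0 of 12950 genes in this class (421 had an unadjusted p under 0.05), while DESeq2 called 32; Cma1 was called under 2 of 8 alternatives, with adjusted p from 6.26e-57 to 1.00. Prss34, a protease of basophils, had 0, 408.8 and 42.7 CPM, and basophil barcodes were 0.308%, 5.71% and 2.48% of the class.

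The upstream sequences of 3 of these proteases are shown because they were low together in both KO libraries. Each run is the 250 bases before the RefSeq start, 5′ to 3′ along the gene's strand (GRCm38.p6), with GATAA, or TTATC on the opposite strand, in capitals, the core letters bound by GATA factors such as GATA2.
Cma1, chr14:55944676-55944925, minus strand: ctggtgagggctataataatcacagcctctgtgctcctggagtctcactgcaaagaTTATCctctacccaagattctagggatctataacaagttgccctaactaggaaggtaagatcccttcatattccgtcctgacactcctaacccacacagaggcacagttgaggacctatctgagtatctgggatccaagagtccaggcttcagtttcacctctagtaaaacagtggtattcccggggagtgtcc
Mcpt4, chr14:56062311-56062560, minus strand: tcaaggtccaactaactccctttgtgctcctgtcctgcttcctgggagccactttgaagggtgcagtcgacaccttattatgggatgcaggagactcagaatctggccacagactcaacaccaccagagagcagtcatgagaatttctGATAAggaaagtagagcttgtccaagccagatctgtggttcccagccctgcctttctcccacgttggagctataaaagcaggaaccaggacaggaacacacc
Cpa3, chr3:20242182-20242431, minus strand: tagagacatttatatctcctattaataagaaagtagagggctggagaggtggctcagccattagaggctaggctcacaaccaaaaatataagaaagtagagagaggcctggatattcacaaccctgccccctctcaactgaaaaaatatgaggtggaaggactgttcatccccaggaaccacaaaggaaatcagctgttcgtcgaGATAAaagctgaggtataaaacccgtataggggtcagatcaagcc
All 3 windows held the letters, which stand in 22.6% of the 32851 upstream windows of this length on either strand. The match is a description of letters, and the genes and motif were chosen with the results known. The window of Tpsb2 was not examined. Cma1 and Mcpt4 lie on chromosome 14 and Cpa3 on chromosome 3, so they do not share 1 locus. Gata2, itself a member of the mast cell, basophil and eosinophil list, had 3.24 CPM in the KO other class, 81.5 in WT replicate 1 and 36.7 in WT replicate 2.

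Innate lymphoid barcodes were also a smaller share of the KO class. Barcodes with at least 2 of the 4 markers of type 2 innate lymphoid cells were 13 of 975 (1.33%) in the KO library, 28 of 70 (40.0%) in WT replicate 1 and 39 of 604 (6.46%) in WT replicate 2, and 8.51% in KO sham against 18.8% in WT sham. Progenitor barcodes (at least 2 of Cd34, Kit and Myb) were 0.718% in the KO library, 11.4% in WT replicate 1 and 8.11% in WT replicate 2, and after thinning 1 of 950, 0 of 69 and 3 of 600. Il1rl1, the receptor for interleukin-33, had 1.83 CPM in the KO library, 441.7 in WT replicate 1 and 38.4 in WT replicate 2, and Il13, a type 2 cytokine, had 0.845, 55.2 and 22.96 CPM. Il5, the eosinophil growth factor, had 0.986, 330.0 and 5.14 CPM. Of 20 natural killer and innate lymphoid genes 10 were at least 2-fold below both WT libraries, beside 6.79% of all genes, and none was 2-fold above. Natural killer barcodes were 3.69% of the class in the KO library, 8.57% in WT replicate 1 and 5.46% in WT replicate 2, and dendritic cell barcodes 2.05%, 7.14% and 3.81%. For both types the KO interval overlapped that of WT replicate 2, and after thinning to 1000 UMIs natural killer barcodes were 0.947%, 1.45% and 1.83% and dendritic barcodes 0.316%, 1.45% and 0.167%, so the KO dendritic share was no longer the lowest. H2-Aa, an MHC class II chain of antigen-presenting cells, had 304.3 CPM in the KO library, 925.5 in WT replicate 1 and 802.9 in WT replicate 2 (adjusted p = 0.996). In KO sham H2-Aa was at 1258 CPM, above all of these.

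**Figure D4:**
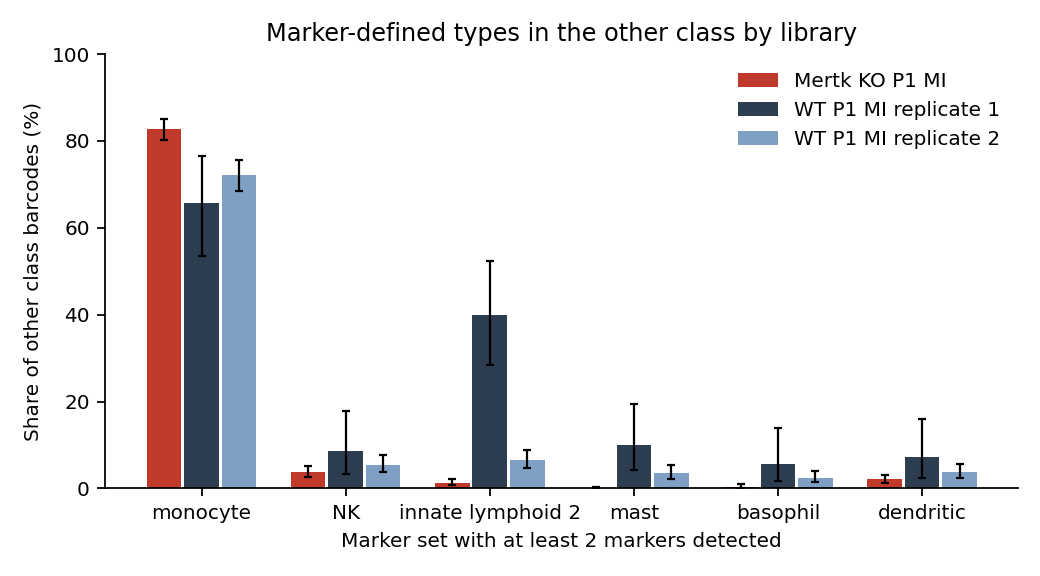
Share of other class barcodes (%, vertical axis) with at least 2 markers of a cell type (horizontal axis) in the Mertk KO P1 MI library and the 2 WT P1 MI libraries; bars are shares and lines exact 95% binomial intervals (counting error only). No KO barcode meets the mast cell set, against 10.0% in WT replicate 1 and 3.48% in WT replicate 2, and the type 2 innate lymphoid share is 1.33% in the KO library.

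Most barcodes of the KO other class met the monocyte marker set, which is not specific to monocytes here. Its markers Ly6c2 and Csf1r were found in 29.5% and 35.8% of KO neutrophils. At least 2 neutrophil markers stood in 46.2% of KO other class barcodes, so the 2 sets overlap. Barcodes with at least 2 of 7 monocyte markers were 82.8% of the class in the KO library, 65.7% in WT replicate 1 and 72.2% in WT replicate 2 (61.6%, 30.4% and 46.0% after thinning to 1000 UMIs). The monocyte markers Ly6c2 (115.6, 148.5 and 150.0 CPM) and Ccr2 (296.9, 469.3 and 257.4 CPM) were not higher in the KO library than in both WT libraries. Lyz2, lysozyme, had 10600 CPM in the KO library, 4530 in WT replicate 1 and 4757 in WT replicate 2. Fcgr4, an activating Fc receptor, had 251.3, 24.98 and 85.2 CPM, and Il1b had 4169, 857.1 and 1819 CPM. At least 2-fold above both WT libraries were 322 genes (2.74% of 11760) and at least 2-fold below both were 798 (6.79%); beyond WT replicate 2 alone lay 2503 genes and beyond WT replicate 1 alone 3699, against 1120 beyond both.

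Marco and Saa3 were among the genes furthest above both WT libraries. Marco, a scavenger receptor of macrophages, had 323.0 CPM in 90 of 975 KO barcodes, 0 in WT replicate 1 and 1.36 CPM in 7 of 604 WT replicate 2 barcodes, with 6.07 CPM in KO stroma and 48.7 CPM in KO neutrophils. Saa3 had 9116 CPM in the KO library, 1.31 in WT replicate 1 and 889.1 in WT replicate 2, in 687 of 975, 1 of 70 and 132 of 604 barcodes, beside 14650 CPM in KO stroma. Cxcl5 had 327.9, 0 and 10.1 CPM, beside 1157 CPM in KO stroma. Of 13 tertiary granule genes 10 were at least 2-fold above both (2.74% of all genes were), and at least 2 neutrophil markers stood in 46.2% of KO, 1.43% of WT replicate 1 and 18.2% of WT replicate 2 barcodes of this class; the part of neutrophils or their free RNA in these values was not tested. Hypoxia and glycolysis genes were again high, with 9 of 20 at least 2-fold above both (2.74% of all genes) and Gapdh at 5108, 1556 and 1597 CPM.

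**Figure D5:**
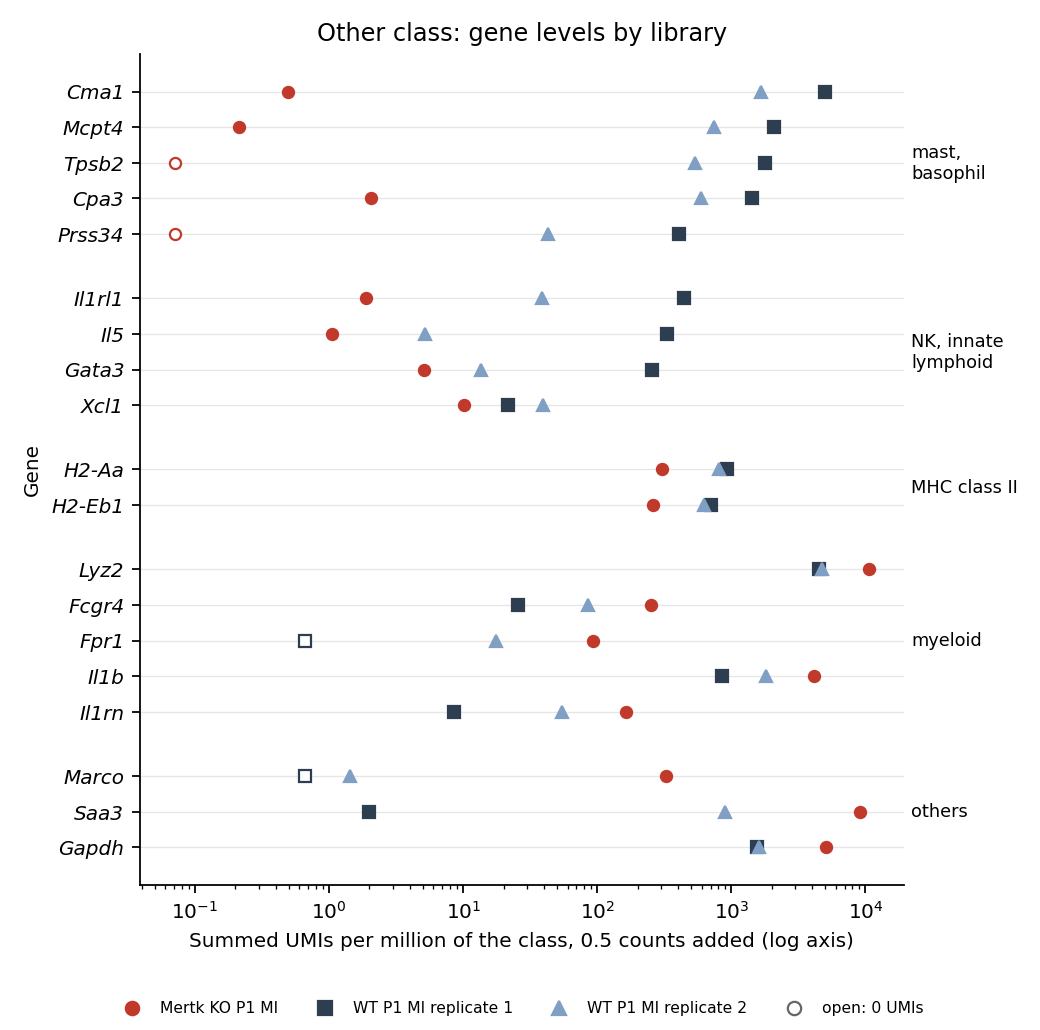
Level in CPM in the other class (horizontal axis, log scale, 0.5 counts added) for named genes (vertical axis, grouped by role) in the Mertk KO P1 MI library and the 2 WT P1 MI libraries; open symbols are 0 UMIs. The mast cell and basophil genes lie at or below 1.97 CPM in the KO library and at 42.7 CPM or more in both WT libraries, and Lyz2, Fcgr4, Marco and Gapdh are highest in the KO library.

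Across all 4 classes, 9 of 6285 genes measured in each (0.143%) were at least 2-fold above both WT libraries every time and 12 (0.191%) were below. Gapdh was among the higher ones, with 4276 CPM in KO T cells, 1011 in WT replicate 1 and 1770 in WT replicate 2, and 3305, 1047 and 1449 CPM in B cells. KO stroma had 3320 CPM of Gapdh against 944.6 in WT replicate 1 and 924.3 in WT replicate 2, so the difference was present in stroma too. Fcgr4, Saa3, Gbp2 and Zbp1, a nucleic acid sensor, were also among them. Eif3j1, a translation initiation factor gene on chromosome 2 (chr2:122028546-122056598), was among the lower ones: it had 10.4, 90.4 and 46.2 CPM in neutrophils and 21.3, 90.5 and 76.3 CPM in T cells, and 10.1 CPM in KO sham against 35.6 in WT sham neutrophils. Its near-identical copy Eif3j2 was higher in KO neutrophils (28.5 CPM, against 0 in WT replicate 1 and 1.95 in WT replicate 2, adjusted p = 0.0441, called under 4 of 8 alternatives), and since reads can be assigned to either copy, both values are uncertain.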

How the data were processed

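Single-cell RNA libraries were made with 10x Genomics 3′ chemistry, and the authors deposited raw UMI counts per gene and barcode on GRCm38. Per the file headers they came from Cell Ranger 4.0.0 (KO and WT replicate 1 among 5 libraries) or 6.1.0 (WT replicate 2 and 1 other). Members, gene lists and tests were chosen with earlier results of these data known. From the counts, barcodes were filtered and classed as described, and sums per class and library were tested with edgeR 4.0.16 (quasi-likelihood, TMM, filterByExpr, Benjamini-Hochberg over all genes tested, 1 residual degree of freedom; R 4.3.3), with DESeq2 1.42.0 as an alternative. The test was tested on simulated data: of 50 genes changed 16-fold it recovered 19 in neutrophils, 0 in T, 23 in B and 40 in other. It made 2 false calls in neutrophils, 0 in T, 3 in B (where 2 real genes were called) and 2 in other. On the real counts it called 67 genes in T and 0 in other, so the simulated counts do not match the real ones and the recovery is a rough guide. CPM uses the class total of a library, and ratios had 0.5 counts added. Named genes were the 8 called with the largest change per direction and class, list members and a fixed set of 25; Il17a, Tnfrsf4, Tnfrsf9, Cd69, Ly6a, Gzmb, Arg1, Nos2, Ereg, Saa3 and some others were chosen after their values were seen. Doublets stayed in; Scrublet in scanpy 1.11.5 marked 1 KO, 3 WT replicate 1 and 216 WT replicate 2 barcodes at its automatic threshold, too few in the KO library to have worked, so an alternative removed the highest-scoring 349, 5 and 822 barcodes. Intervals are exact (Clopper-Pearson) 95%. Sequences and starts are from RefSeq (GRCm38.p6). The adult libraries were not used here beyond the barcode total.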

Additional observations from a re-analysis of the deposited data

Results flagged for a closer look

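Given here are 5 of the genes described that lay at least 2-fold beyond both WT libraries in opposite directions in different leukocyte classes. The values are the fold of the KO library over the nearer WT library (0.5 counts added), and the differences between classes were not tested. Cenpf, a kinetochore protein of dividing cells chosen after its values were seen, was 2.40-fold in the T class (110.8 CPM in the KO library, 5.78 in WT replicate 1 and 46.2 in WT replicate 2) and 0.0468-fold in the B class (0 UMIs in the KO library, 27 in WT replicate 1 and 44 in WT replicate 2). Mki67, a proliferation marker, was 2.32-fold in the T class and 0.468-fold in the B class. Chil3, a chitinase-like protein of neutrophil precursors and monocytes, was 0.199-fold in the neutrophil class and 10.7-fold in the other class, where 91.2% of its KO UMIs came from 1 barcode. Mpo was 0.143-fold in the neutrophil class and 3.82-fold in the other class, at 7.47 CPM in the KO library, 1.31 in WT replicate 1 and 1.21 in WT replicate 2. Gzma was 0.300-fold in the T class, 3.79-fold in the B class and 0.499-fold in the other class; its B class UMIs (60 in the KO library, 30 in WT replicate 1 and 66 in WT replicate 2) stood in 1 barcode of each library.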

How the results depend on the processing

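No result reversed. The class shares kept their direction under every alternative run; the other class differed from the WT mean by -11.79 percentage points, by -24.24 after thinning, -7.26 with a 2% neutrophil rule and -12.73 with no C1q UMI allowed. Leaving out a WT library moved the share differences between 20.83 and 62.11 points for neutrophils, -27.16 and -3.67 for T, -22.66 and -5.87 for B, and -12.28 and -11.30 for other; the same step moved the counts of genes 2-fold beyond WT to 1736 and 5086 in neutrophils, 1262 and 2413 in T, 1200 and 1951 in B, and 2503 and 3699 in other. Adding 2 counts in place of 0.5 gave 441 genes in B, against 683. The 27 neutrophil calls became 11 under DESeq2 and 70 with doublets removed. The 67 T calls became 12 under DESeq2, 0 with library totals, 44 without the low count filter, 36 with all libraries in the fit and 172 with ambiguous barcodes left out. With doublets removed 46 T genes were called, of which only 17 were among the 67. The 2 B calls became 0 under DESeq2, library totals, all libraries or doublet removal, 1 with ambiguous barcodes left out, 37 with the stricter barcode filter and 54 without the low count filter. The other class went to 32 under DESeq2 and 234 without the low count filter, against 0. The prior degrees of freedom of edgeR moved too. In T they were infinite in the main test and 2.601 with library totals. In other they were 3.219 in the main test and infinite without the low count filter. In B they went from 9.899 to 93.88 (stricter filter) and to infinite (no low count filter). They stayed infinite in T at 44 and at 172 calls. The cause of these moves was not tested. Library totals shifted the median log2 fold change of all genes to -0.23 in neutrophils and -0.26 in other. Counting genes 2-fold beyond both with no counts added, and leaving out a library for the shares, were chosen after seeing the data. Calls with 1 WT library left out have no residual degree of freedom and were not run. No paired analysis was possible because the knockout has 1 library. Depth limits the neutrophils of WT replicate 1 (265373 UMIs, where 3 counts are 11.3 CPM) and of WT sham (196795 UMIs), and the KO B cells.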
